A study of Mus musculus with 5 samples.

Results

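Transcripts of 6 WNT ligand genes (Wnt2, Wnt2b, Wnt3, Wnt4, Wnt5a and Wnt5b) and 3 R-spondin genes (Rspo1, Rspo2 and Rspo3) were followed through the cell classes of the mouse intestine. These 9 genes were taken by symbol from the 32285 genes of the count matrices. The libraries came from duodenum, jejunum, ileum, colon and rectum, 1 library each, made with 10x Genomics droplets after sorting for cells that kept out propidium iodide and so were alive. For each library the labels name epithelium, mesenchyme and immune cells but no strain, genotype, treatment, age or animal number, and all 5 libraries are described alike. Per its title, the study asks how stromal cells with Gnai1, which encodes a G-protein subunit, act on the making of goblet and Paneth cells.

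WNT ligands are lipid-modified secreted proteins that bind Frizzled receptors on nearby cells and, through beta-catenin or through other routes, control stem cell renewal, cell fate and tissue shape. R-spondins are secreted proteins that bind LGR receptors and the ligases RNF43 and ZNRF3, which otherwise clear Frizzled receptors from the cell surface, and so raise the response to WNT ligands. In the intestine the crypt depends on both kinds of signal. Mesenchymal cells are a known source of both, and in the small intestine Paneth cells are a known source of WNT ligands.

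After filtering, 11922 of 16535 barcodes were kept as cells (3196, 1829, 2455, 2148 and 2294 from duodenum to rectum), with median depths of 5050.5 to 9663 UMIs per cell. A UMI marks 1 captured transcript, and levels are given in CPM, the UMIs of a gene per 1000000 UMIs of a class in a library. Of the cells kept, 573 were stromal, 133 endothelial, 4912 epithelial and 6281 immune. The stromal cells numbered 51, 15, 27, 186 and 294 from duodenum to rectum, so the stroma of jejunum and ileum rests on few cells. They divided into 114 PDGFRA-high fibroblast-like cells, 286 other fibroblast-like cells, 108 trophocyte-like cells and 65 smooth muscle-like cells. PDGFRA-high cells are known as subepithelial fibroblasts beneath crypt and villus, and trophocytes as Grem1 and Cd81 cells around the crypt base. Position was not measured here. The trophocyte list also held C3, Pi16 and Dpp4, and the trophocyte-like clusters were led by Igfbp6 and C3. Ackr4, on the same list, was highest in a fibroblast-like cluster, at 546 CPM against 351 and 341 CPM in the trophocyte-like ones. Classes were named from clusters and marker transcripts, with all WNT pathway genes left out of both. All 7 markers of PDGFRA-high cells, 6 of 7 of trophocytes, 9 of 9 of smooth muscle, 6 of 6 of lymphatic endothelium and 9 of 9 of Paneth cells were detected in at least 10% of their class. The fibroblast-like class also held 20 cells of a cluster led by the immunoglobulin gene Ighg1, and plasma cell markers summed to 11929 CPM in this class, against 451.5 CPM in the PDGFRA-high class. Between libraries, 14 of 11908 barcodes occurred more than once.

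The genes lie on several chromosomes. In GRCm38 coordinates Wnt2 (ENSMUSG00000010797) lies at chr6:17985474-18032772, Wnt5b (ENSMUSG00000030170) at chr6:119432531-119544824, Wnt2b (ENSMUSG00000027840) at chr3:104944805-104961709 and Wnt3 (ENSMUSG00000000125) at chr11:103774175-103818021. Wnt4 (ENSMUSG00000036856) lies at chr4:137277635-137299501, Rspo1 (ENSMUSG00000028871) at chr4:124986401-125009102, Wnt5a (ENSMUSG00000021994) at chr14:28504543-28527448, Rspo2 (ENSMUSG00000051920) at chr15:43020788-43171594 and Rspo3 (ENSMUSG00000019880) at chr10:29453106-29535867. The 250 bases before a RefSeq start are shown for a ligand gene led by lymphatic endothelium (Wnt2), one found in epithelium and in no stromal cell (Wnt3) and one found in both stromal and myeloid cells (Wnt4), since their transcripts lay in different lineages. Sequences are from RefSeq, build GRCm38.p6, 5′ to 3′ on the strand of the gene, at chr6:18030446-18030695 on the minus strand, chr11:103773925-103774174 on the plus strand and chr4:137277385-137277634 on the plus strand. The Wnt3 and Wnt4 windows end at the base before the gene spans given above. The Wnt2 window lies inside its gene span, so it precedes a start within the gene and not the outermost one.
Wnt2: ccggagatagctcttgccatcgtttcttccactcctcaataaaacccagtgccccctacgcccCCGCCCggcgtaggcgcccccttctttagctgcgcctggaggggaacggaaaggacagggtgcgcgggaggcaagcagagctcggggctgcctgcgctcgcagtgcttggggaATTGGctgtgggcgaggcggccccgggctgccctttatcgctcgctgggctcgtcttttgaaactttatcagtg
Wnt3: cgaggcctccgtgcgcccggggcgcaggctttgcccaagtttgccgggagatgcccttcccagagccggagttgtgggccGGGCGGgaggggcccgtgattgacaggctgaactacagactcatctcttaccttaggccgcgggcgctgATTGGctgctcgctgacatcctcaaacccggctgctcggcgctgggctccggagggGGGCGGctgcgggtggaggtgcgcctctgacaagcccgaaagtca
Wnt4: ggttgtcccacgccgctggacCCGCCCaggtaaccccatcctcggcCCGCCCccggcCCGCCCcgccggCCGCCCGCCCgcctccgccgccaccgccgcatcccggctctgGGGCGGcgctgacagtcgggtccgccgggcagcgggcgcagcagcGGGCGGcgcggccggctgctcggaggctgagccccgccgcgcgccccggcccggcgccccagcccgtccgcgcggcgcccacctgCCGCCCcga
Capitals mark matches, on either strand, to any of 4 promoter motifs. The CCAAT box was searched by that name's letters and the GC box as GGGCGG. For the TATA box the letters TATAAA were searched. The core bound by LEF factors, which carry the beta-catenin response, was searched as CTTTGA. Wnt2 held 1 CCAAT box and 1 GC box, Wnt3 held 1 CCAAT box and 2 GC boxes, and Wnt4 held 8 GC boxes, some of them overlapping. Their GC contents were 63.6%, 68% and 85.2%, against a median of 52.4% over 32851 mouse windows of this length. Over those windows, 33.8% held a CCAAT box, 32.7% a GC box, 12.4% a TATA box and 13.8% a LEF core. The windows of Wnt2, Wnt3 and Wnt4 held neither of the last 2 motifs, which says only that these letters are not there. A window was at hand for 6 of the 9 genes.

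Where transcripts of the 9 genes lay was the first question. In these libraries the stroma held most UMIs of Wnt2b, Wnt4, Wnt5a, Wnt5b, Rspo1, Rspo2 and Rspo3, between 51.7% and 100% of each gene's UMIs in the cells kept. Wnt2 had 53.0% of its 115 UMIs in endothelial cells, and Wnt3 had 98.2% of its 285 UMIs in epithelial cells. Of the 8 genes with at least 50 UMIs over stroma and epithelium, 7 were at least 4-fold higher in stromal than in epithelial cells by their mean over libraries, and 0 were at least 4-fold lower. The remaining gene, Wnt3, had 0 stromal and 280 epithelial UMIs. It was not called lower because the rule set its stromal 0 to 3 counts, which left it under 4-fold. Over all 14823 genes tested by the same rule, 17.8% were higher and 14.0% lower. The same 7 genes passed without the duodenal, the jejunal or the ileal library. Without the colonic library 6 passed, with Wnt2 under the UMI minimum, and without the rectal library 4 passed (Wnt4, Wnt5a, Wnt5b and Rspo3). With trophocyte-like cells left out of the stroma 5 passed, with Wnt2 and Rspo1 under the UMI minimum. Because classes were clustered on these cells and each segment is 1 library, such counts are descriptions and carry no test.

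Wnt5a, a ligand best known for signalling that does not use beta-catenin, was the WNT gene most concentrated in PDGFRA-high cells. Its stromal level was 137, 130, 71.0, 98.8 and 150 CPM from duodenum to rectum, and its epithelial level was 0.389, 0.311, 0.214, 5.14 and 0.0451 CPM. Stroma lay above epithelium in every library, with means of 117 ± 32.1 CPM in stroma and 1.22 ± 2.20 CPM in epithelium (SD over 5 libraries), a ratio of 96.2. Within the stroma, PDGFRA-high cells gave 342 CPM in duodenum, 524 CPM in colon and 514 CPM in rectum, the libraries with at least 10 such cells. Trophocyte-like cells gave 72.0, 130, 85.2, 75.1 and 91.4 CPM from duodenum to rectum. The lowest of the 3 PDGFRA-high values was thus above the highest trophocyte value. PDGFRA-high cells averaged 460 ± 102 CPM, 5.48 times the trophocyte mean of 83.9 CPM, and held 450 of the 654 stromal Wnt5a UMIs in 114 of 573 cells. That trophocyte mean is of ileum, colon and rectum, the libraries with at least 10 such cells. A Wnt5a UMI was found in 97 of 114 PDGFRA-high cells (85.1%, 95% exact binomial interval 77.2% to 91.1%), at a median of 8087.5 UMIs per cell. In lymphatic endothelium it was found in 2 of 117 cells (1.71%), at a median of 5970 UMIs. All 3 PDGFRA-high clusters carried it, with 437 CPM in the cluster led by Ogn, 786 CPM in the one led by Pdgfra and 415 CPM in the one led by Rbp4. Wnt5a kept this leading class in all 11 of the other ways tried of filtering, clustering and averaging.

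Wnt4, a ligand known from kidney and reproductive tract development, was spread over PDGFRA-high and other fibroblasts. Its level in PDGFRA-high cells was 249 CPM in duodenum, 186 CPM in colon and 214 CPM in rectum. Other fibroblast-like cells gave 74.2, 0, 34.8, 194 and 219 CPM from duodenum to rectum. PDGFRA-high cells were the higher class in duodenum, and the other fibroblasts were slightly higher in colon and rectum. Their means were 217 ± 31.3 CPM over 3 libraries in PDGFRA-high cells and 130 CPM over 4 libraries in the other fibroblasts, a ratio of 1.66. The fibroblast mean adds the ileum, at 34.8 CPM, so the means cover unlike libraries. The order turned round in 1 of the 11 other settings. Trophocyte-like cells had 0, 0, 0, 16.3 and 5.22 CPM, so the gene was near 0 in the class that carried the most Rspo1. Within the fibroblasts the cluster led by Adamdec1 had 375 CPM of Wnt4 and the cluster led by Sfrp1 had 102 CPM, and within the PDGFRA-high class the Rbp4 cluster had 74.2 CPM against 441 CPM in the Pdgfra cluster. Stroma as a whole gave 104, 0, 33.4, 150 and 167 CPM against 0.705, 0.893, 0.785, 0.348 and 0.587 CPM in epithelium, higher in 4 of 5 libraries. The jejunal stroma had 0 UMIs in 15 cells, which allows up to 24.3 CPM (3 counts of the total).

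Wnt5b, the close relative of Wnt5a, lay in the same 2 fibroblast classes as Wnt4. Where counts of different genes are set side by side, they are captured UMIs only, since how well each gene is captured was not measured. Stromal Wnt5b was 35.5, 56.7, 12.5, 22.7 and 52.3 CPM from duodenum to rectum and averaged 36.0 ± 18.9 CPM, against 0.862 ± 0.998 CPM in epithelium (SD over 5 libraries), a ratio of 41.7. PDGFRA-high cells gave 62.2 CPM in duodenum, 35.0 CPM in colon and 57.3 CPM in rectum, and other fibroblasts gave 30.9, 86.4, 17.4, 24.8 and 70.6 CPM from duodenum to rectum. These ranges overlapped. The Wnt5b means of 51.5 ± 14.5 CPM in PDGFRA-high cells and 35.9 CPM in the other fibroblasts differed by a ratio of 1.43, and fibroblasts led in 1 of 11 other settings. These means too cover unlike libraries, 3 and 4, with the ileum in the fibroblast mean alone.

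Wnt2b, a ligand of the beta-catenin route known from intestinal mesenchyme, was low and found in every class of the stroma. Its stromal level was 11.8, 8.10, 8.35, 7.37 and 13.8 CPM from duodenum to rectum, with 57 UMIs in all, against 0.0451 to 0.107 CPM in epithelium. All 5 stromal levels of Wnt2b lay above the epithelial ones, with a stromal mean of 9.90 ± 2.79 CPM (SD over 5 libraries). No stromal class stood apart for Wnt2b. Smooth muscle had 8.67 ± 1.60 CPM (SD over 2 libraries), from 5 UMIs in all. Fibroblasts had 7.33 ± 9.44 CPM (SD over 4 libraries) and trophocytes 7.2 ± 5.21 CPM (SD over 3 libraries). Another class led in 10 of 11 other settings. One fibroblast cluster, led by Cxcl13 and mostly from rectum (79 of 88 cells), had 28 of the 57 stromal Wnt2b UMIs, or 39.0 CPM, while the fibroblast cluster led by Adamdec1 had 5.02 CPM.

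**Figure D1:**
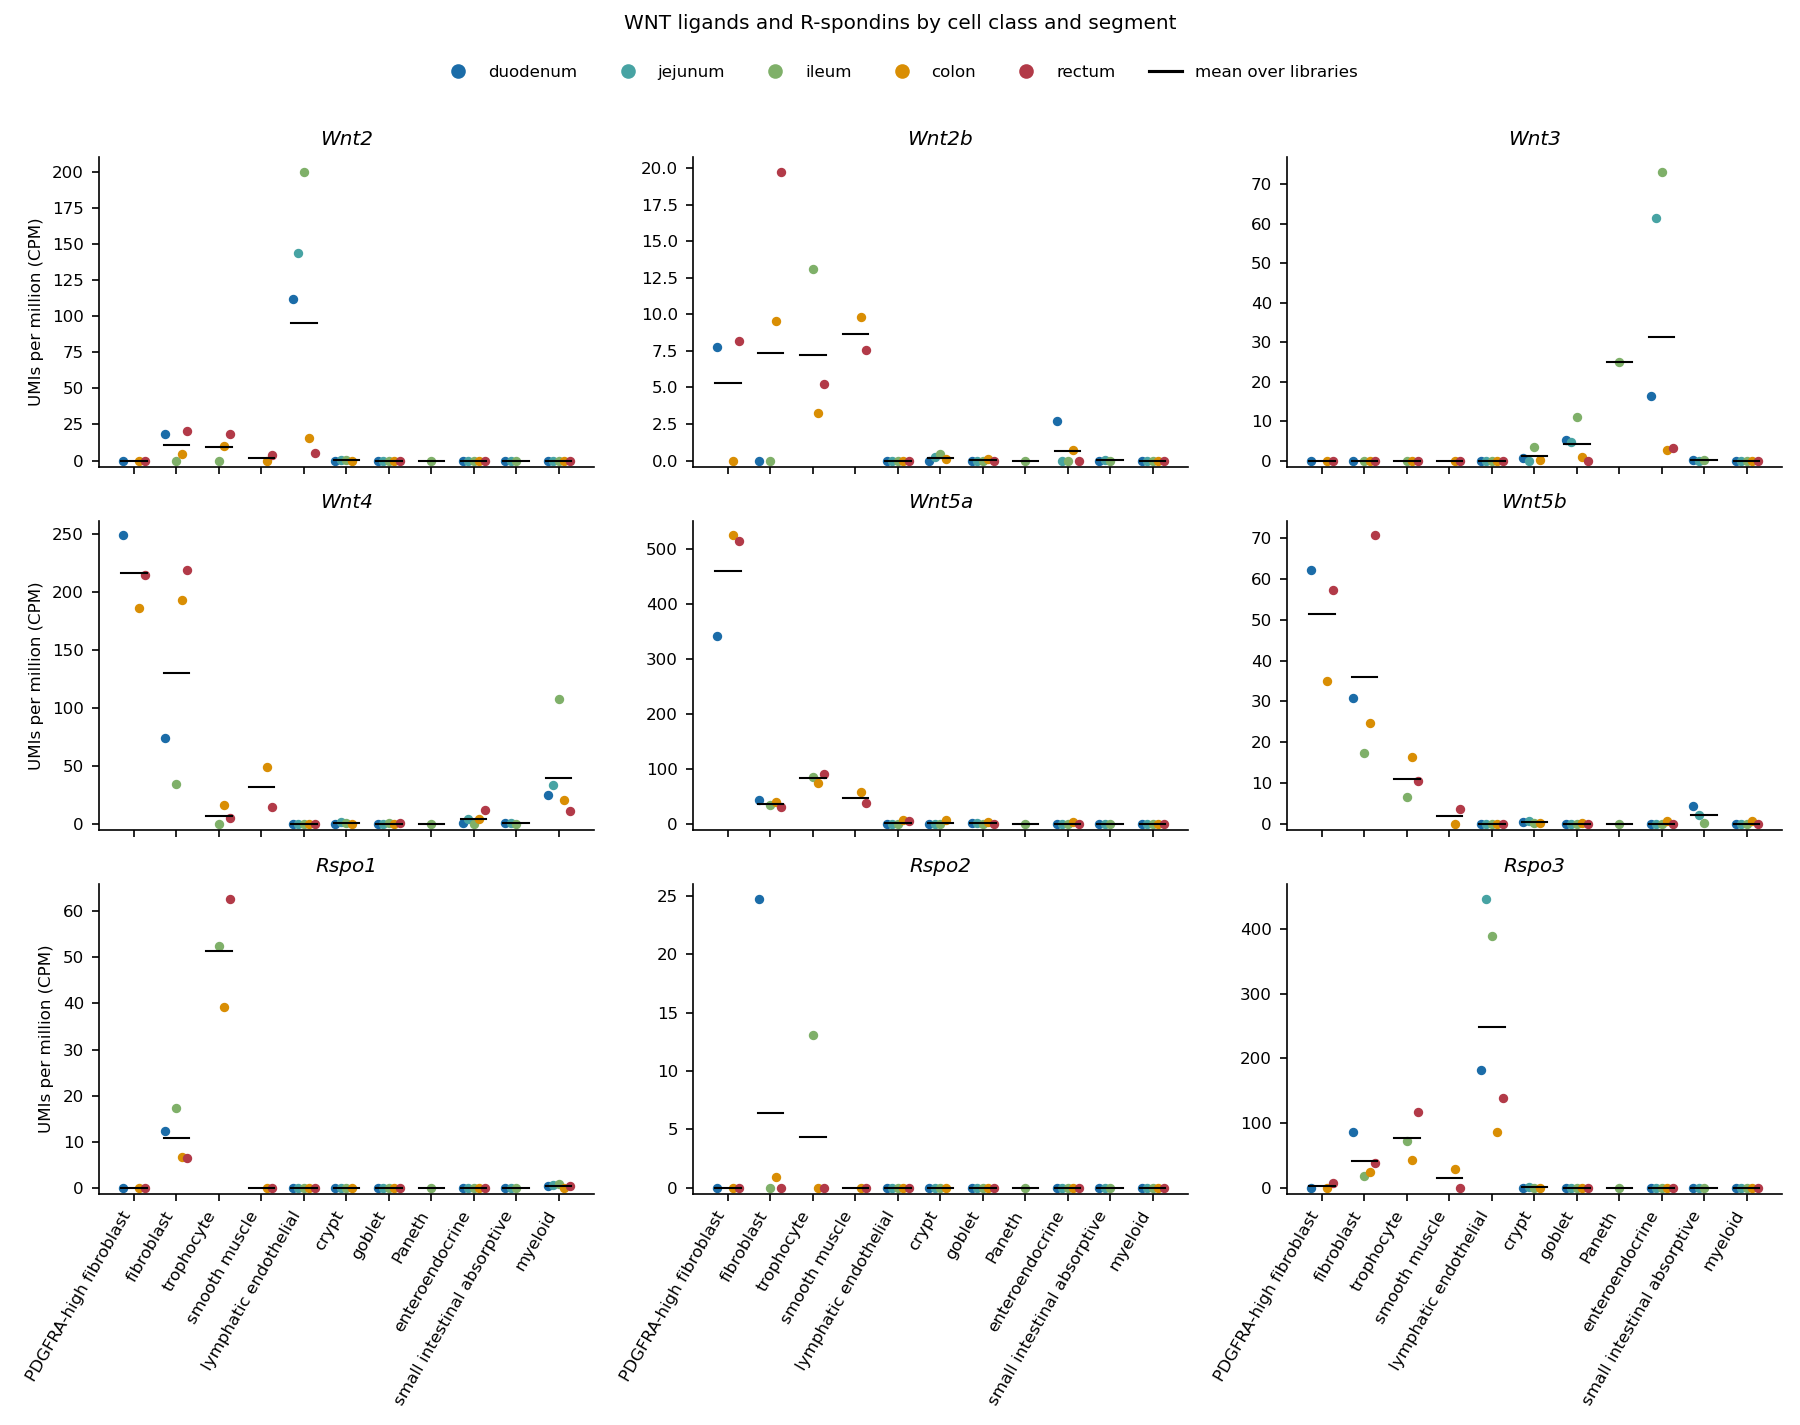
Levels in CPM (UMIs per 1000000 UMIs; linear axis starting at 0) of each of the 9 genes in 11 cell classes. Each point is 1 library with at least 10 cells of the class, coloured by segment, and the line is the mean over these libraries; Wnt5a points of PDGFRA-high fibroblasts lie at 342 to 524 CPM, and Wnt2 and Rspo3 points peak in lymphatic endothelium.

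Wnt2, a further ligand of the beta-catenin route, had its highest mean level in lymphatic endothelium, the cells lining lacteals and lymph vessels. Lymphatic endothelial-like cells averaged 95.2 ± 83.8 CPM (SD over 5 libraries) and fibroblast-like cells 11.0 CPM over 4 libraries without the jejunum, a ratio of 8.70. The order turned round in rectum, with 4.97 CPM in lymphatic cells, from 1 UMI, against 20.5 CPM in fibroblast-like cells. In colon lymphatic cells had 15.6 CPM, from 2 UMIs, against 4.77 CPM. Wnt2 had 0 UMIs in 114 PDGFRA-high cells, which allows up to 3.26 CPM, and 18.6, 0, 0, 4.77 and 20.5 CPM in other fibroblasts from duodenum to rectum. Stromal Wnt2 was 7.09, 0, 0, 4.91 and 13.8 CPM, so duodenal, colonic and rectal stroma carried it and jejunal and ileal stroma showed no UMI. Across endothelium as a whole, Wnt2 and Rspo3 were the 2 of 6 tested genes at least 4-fold above epithelium, against 14.0% higher and 10.4% lower among all 14200 genes tested. Wnt2b, Wnt3, Wnt4, Wnt5b, Rspo1 and Rspo2 had 0 UMIs in the 133 endothelial cells, which allows each up to 3.73 CPM. Blood endothelial-like cells were too few for a statement, with 0 UMIs of any of the 9 genes in 16 cells.

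In lymphatic cells Wnt2 differed between small and large intestine. Colon and rectum had 2 and 1 Wnt2 UMIs, or 15.6 CPM (95% exact Poisson interval 1.88 to 56.2) and 4.97 CPM (0.126 to 27.7). Duodenum, jejunum and ileum had 19, 20 and 19 UMIs, or 112 CPM (67.3 to 174.5), 144 CPM (87.9 to 222) and 200 CPM (120 to 312). All these intervals, here and below, cover counting error only, and those of the 2 large intestinal libraries did not reach those of the 3 small intestinal ones. The lowest small intestinal value was 7.18 times the highest large intestinal one, which passed a rule of a 4-fold gap between the sides, chosen for this class after seeing the data. Over 2646 genes tested by that rule, 0.0378% were higher and 0.151% were lower in the large intestine, and Wnt2 was among the 4 lower ones. The libraries are single and their Wnt2 UMIs few, and leaving out the duodenal, jejunal or ileal library left under 50 UMIs and no test by this rule.

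The makeup of this class differed between the 2 sides of the gut. The larger of its 2 clusters, with 74 cells, held 22 and 35 lymphatic cells from colon and rectum and 9, 3 and 5 from duodenum, jejunum and ileum, whereas the smaller, with 43 cells, held 1 colonic and 0 rectal cells against 13, 18 and 11 small intestinal ones. Within the larger cluster the Wnt2 levels were 17.1 and 4.97 CPM in colon and rectum and 31.8, 61.2 and 92.9 CPM in duodenum, jejunum and ileum, from 1 to 3 UMIs each, and their intervals overlapped. The smaller cluster gave 159, 155 and 255 CPM in the 3 small intestinal libraries. Markers of the immune lineage gave 19 and 0 UMIs in the colonic and rectal cells of the class, against 187, 67 and 2 UMIs in duodenum, jejunum and ileum, nearly all in the smaller cluster. With every cell that had such a UMI left out, Wnt2 was 17.1 and 4.97 CPM in colon and rectum, against 150, 157 and 155 CPM in duodenum, jejunum and ileum. Segment, cluster and library cannot be told apart here.

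**Figure D2:**
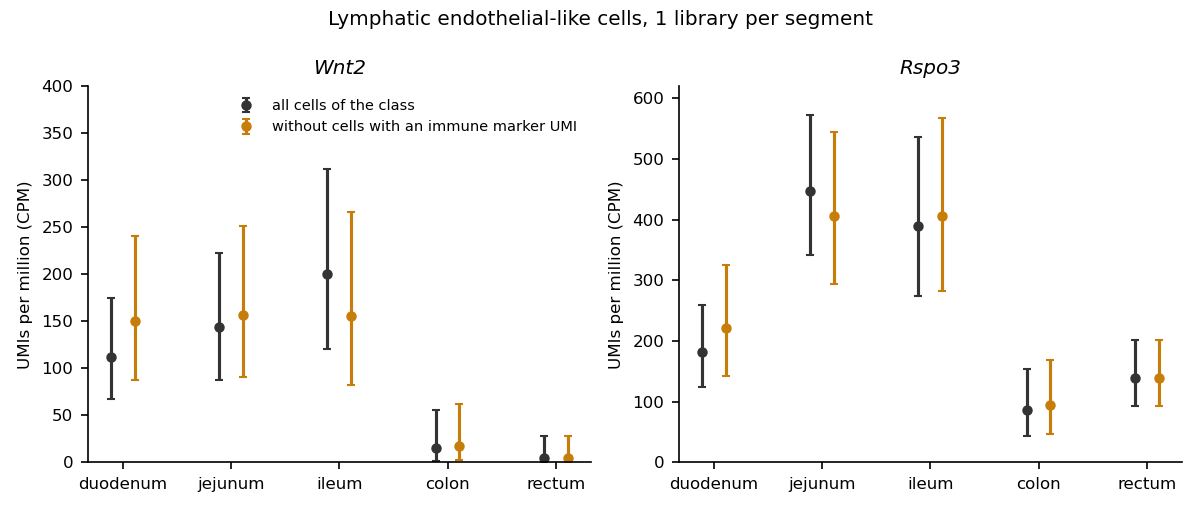
Wnt2 and Rspo3 levels in CPM in lymphatic endothelial-like cells by segment, 1 library each, for all cells of the class and without cells that had a UMI of an immune lineage marker. Bars are 95% exact Poisson intervals; Wnt2 lies at 112 to 200 CPM in the 3 small intestinal libraries and at 4.97 to 15.6 CPM in colon and rectum.

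Rspo3, the R-spondin with the most UMIs in these libraries, came from lymphatic endothelium and from several stromal classes. Lymphatic cells gave 182, 446, 389, 85.6 and 139 CPM from duodenum to rectum and averaged 249 ± 160 CPM, 3.21 times the trophocyte mean of 77.4 CPM. The trophocyte mean is of ileum, colon and rectum alone. The large intestinal Rspo3 values lay below all 3 small intestinal ones, by a gap of 1.31, under the 4-fold rule. How many of all genes separate by so small a gap was not computed. Trophocyte-like cells gave 108, 55.9, 72.1, 42.4 and 118 CPM and other fibroblasts 86.6, 64.8, 17.4, 23.8 and 38.8 CPM. PDGFRA-high cells had 4 Rspo3 UMIs in 114 cells, or 4.35 CPM (1.19 to 11.1), so the class richest in Wnt5a had almost none. A Rspo3 UMI was found in 65 of 117 lymphatic cells (55.6%, at a median of 5970 UMIs), in 44 of 108 trophocyte-like cells (40.7%, at a median of 9380.5 UMIs) and in 4 of 4912 epithelial cells (0.0814%, at a median of 31564 UMIs). Stroma as a whole averaged 52.0 ± 19.0 CPM of Rspo3 against 0.0889 ± 0.119 CPM in epithelium, a ratio of 585, and lay higher in 5 of 5 libraries.

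Rspo1 was mainly a transcript of trophocyte-like cells. They held 52 of its 72 stromal UMIs, with 96.0, 0, 52.4, 39.2 and 62.7 CPM from duodenum to rectum, and the jejunal 0 rests on 6 cells. In the 3 libraries with at least 10 such cells the mean was 51.4 ± 11.8 CPM, 4.81 times the fibroblast mean of 10.7 CPM. That fibroblast mean is over 4 libraries, with the duodenum added. Trophocytes led in all 11 other settings. PDGFRA-high cells had 0 Rspo1 UMIs, which allows up to 3.26 CPM, and so did lymphatic cells, which allows up to 4.09 CPM. Stromal Rspo1 was 23.7, 0, 41.8, 11.7 and 12.3 CPM, against 1 UMI in all 4912 epithelial cells. The epithelial count is too low for a fold change.

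Rspo2 was the rarest of the 9 genes. It had 11 UMIs in all cells kept, every one of them stromal, with 5 in fibroblast-like and 6 in trophocyte-like cells. Duodenum gave 7 of them, jejunum 1, ileum 2, colon 1 and rectum 0. The 51 duodenal, 15 jejunal and 27 ileal stromal cells thus held 10 of the 11 Rspo2 UMIs, while the 186 colonic and 294 rectal ones held 1. This count is below the minimum of 50 UMIs, so Rspo2 entered no rule of size.

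Along the gut, the stromal members stayed within the 4-fold rule. None of the 6 members with at least 50 stromal UMIs had a 4-fold gap between large and small intestinal stroma, while 0.078% of 8973 genes were higher and 0.078% lower. Wnt4 had 150 and 167 CPM in colon and rectum, above 104, 0 and 33.4 CPM in duodenum, jejunum and ileum, a gap of 1.45. Rspo3 lay the other way, with 25.2 and 38.9 CPM in colon and rectum below 68.6, 64.8 and 62.7 CPM in duodenum, jejunum and ileum, a gap of 1.61. The share of all genes whose libraries separate like this was not computed, so neither order is read as a result about the members. The stroma also differed in makeup, since PDGFRA-high cells were 24 of 186 and 74 of 294 stromal cells in colon and rectum against 15 of 51, 0 of 15 and 1 of 27 in duodenum, jejunum and ileum. Leaving out the duodenal library brought Wnt4 over the 4-fold rule. Of 10 secreted antagonists, Dkk2, an inhibitor that binds LRP co-receptors, was lower in the large intestine by this rule, with 8 UMIs in colon and rectum against 121 in the 3 small intestinal libraries.

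Wnt3, the ligand by which Paneth cells are known to sustain stem cells, was epithelial. It had 0 UMIs in 573 stromal cells, which allows up to 0.589 CPM in their summed counts. Epithelial Wnt3 was 0.900, 1.40, 6.78, 0.428 and 0.0451 CPM from duodenum to rectum, from 37, 36, 190, 16 and 1 UMIs, so the ileum was highest and the rectum lowest. Paneth-like cells gave 23.7 CPM in duodenum (8 cells), 51.6 CPM in jejunum (4 cells) and 24.8 CPM in ileum (23 cells). A Wnt3 UMI was found in 22 of 35 Paneth-like cells (62.9%, 44.9% to 78.5%), at a median depth of 96059 UMIs per cell. In absorptive cells of the small intestine it was found in 3 of 1355 cells (0.221%), at a median of 31757 UMIs.

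Enteroendocrine-like cells, which make gut hormones, also carried Wnt3. Their values were 16.4, 61.5, 73.2, 2.76 and 3.09 CPM from duodenum to rectum, from 12, 13, 29, 4 and 1 UMIs. The 3 small intestinal libraries lay above both large intestinal ones, and the share of all genes with such an order was not computed. The enteroendocrine mean was 31.4 ± 33.5 CPM (SD over 5 libraries) and the Paneth value 24.8 CPM in the 1 library with at least 10 cells, and Paneth cells led in 3 of 11 other settings. With UMIs summed over libraries the enteroendocrine level was 19.0 CPM. Goblet-like cells followed for Wnt3, with 5.10, 4.73, 10.9, 0.777 and 0 CPM. Crypt cells had 0.585, 0, 3.48 and 0.0714 CPM in the first 4 segments, so Paneth, goblet and enteroendocrine classes held 82, 98 and 59 of the 280 epithelial Wnt3 UMIs.

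Wnt5a and Wnt5b also appeared in epithelium, each in certain segments. Colonic epithelium had 192 Wnt5a UMIs, or 5.14 CPM (4.44 to 5.92), in 136 of 1126 cells (12.1%). The duodenal, jejunal, ileal and rectal epithelium lay between 0.0451 and 0.389 CPM. Within the colon Wnt5a was 7.07 CPM in crypt cells, 4.47 CPM in goblet cells and 3.46 CPM in absorptive cells, so all 3 classes carried it. Colonic immune cells of the same library had 1 Wnt5a UMI in 807 cells. Colonic epithelium held 13 Wnt4 UMIs beside its 192 of Wnt5a, while colonic stroma held 245 Wnt4 UMIs beside 161 of Wnt5a.

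Wnt5b was highest in the epithelium of the upper gut, with 2.14, 1.75, 0.143, 0.187 and 0.0903 CPM from duodenum to rectum. Absorptive cells gave 68 of the 88 duodenal and 40 of the 45 jejunal epithelial Wnt5b UMIs, or 4.44 and 2.34 CPM, against 1 UMI and 0.170 CPM in ileal absorptive cells. Duodenal epithelium thus held 88 Wnt5b, 16 Wnt5a and 29 Wnt4 UMIs, while duodenal stroma held 15 Wnt5b, 58 Wnt5a and 44 Wnt4 UMIs. These epithelial Wnt5b levels remained far under the stromal ones of the same libraries. Rspo3 in epithelium came to 14 UMIs, of which 7 sat in 1 jejunal crypt cell.

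**Figure D3:**
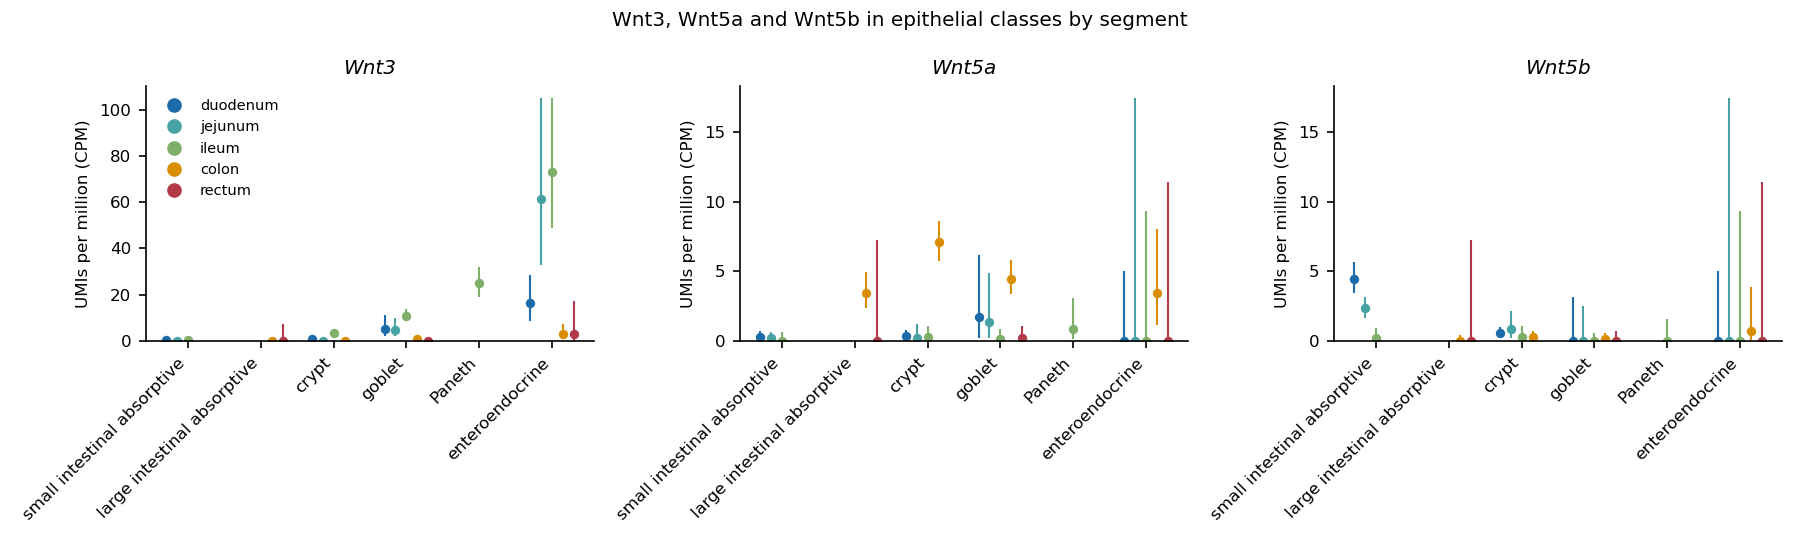
Wnt3, Wnt5a and Wnt5b levels in CPM in epithelial classes by segment, with 95% exact Poisson intervals; each point is 1 library with at least 10 cells of the class. Wnt3 is highest in small intestinal enteroendocrine-like and ileal Paneth-like cells, Wnt5a in colonic classes and Wnt5b in duodenal absorptive cells.

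Combinations of ligands were counted in single cells. Of 573 stromal cells, 106 had a UMI of both Wnt4 and Wnt5a, which was 46.1% of the 230 cells with Wnt4 and 48.2% of the 220 with Wnt5a, where Wnt5a was seen in 38.4% of all stromal cells. Rspo3 went less with Wnt5a, since 28 cells had both, or 12.7% of the cells with Wnt5a, where Rspo3 was seen in 19.9% of all. After thinning each cell to 2000 UMIs, 20 of 118 cells with Wnt4 had Wnt5a (16.9%), slightly under the 18.8% of all stromal cells, so the excess was seen at full depth alone. Thinned cells with Wnt5a had Rspo3 in 1 of 103 (0.971%), against 7.66% of all stromal cells. Grem1, a BMP antagonist on the trophocyte marker list, was found with Rspo3 in 59 cells, 42.4% of those with Grem1 and 51.8% of those with Rspo3. The pair did not mark trophocytes alone, since Grem1 was at 750 and 461 CPM in the 2 trophocyte clusters and at 566 and 396 CPM in the fibroblast clusters led by Sfrp1 and Cxcl13, and the Sfrp1 cluster had 91.8 CPM of Rspo3. In lymphatic cells 28 had both Wnt2 and Rspo3, which was 77.8% of the 36 cells with Wnt2 and 43.1% of the 65 with Rspo3. Rspo3 was seen in 55.6% of all lymphatic cells. After thinning, 10 of 19 cells with Wnt2 also had Rspo3 (52.6%), against 30.4% of all lymphatic cells. These counts pool both lymphatic clusters and all libraries. The smaller cluster was higher for both Wnt2 (171 against 20.9 CPM) and Rspo3 (349 against 146 CPM). How far this accounts for the shared cells was not tested.

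Genes most like each member were ranked by Pearson correlation of log2(CPM + 5) over 71 class-by-library sums, which share libraries and depth, so r is a description only. Wnt2 was most like Rspo3 (r = 0.87), then the cytokine Il7 (0.86) and the semaphorin Sema3d (0.84). Wnt5a was most like Sparcl1 (0.96), and Wnt5b most like Srpx2 (0.93), Cdh11 (0.93) and Pdgfra (0.92). Wnt4 was most like Adgrl3 (0.92), Adamdec1 (0.91) and the cyclooxygenase Ptgs1 (0.90). The matrix protease Mmp3 (0.96) was nearest to Rspo1 and Thsd7a (0.95) to Rspo3. Wnt3 lay nearest to Ptprn2 (0.85), a gene of secretory granules, followed by Cxxc4 (0.83) and the Paneth protease Mmp7 (0.82). For Wnt2b the nearest were Arhgef17 (0.84), Osr1 (0.83) and the receptor gene Fzd2 (0.82).

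Whether these ligands went with Gnai1 was asked in stromal cells, since the study defines its cells by that gene. Each cell with a UMI of Gnai1 was set beside a cell that had none, of like total UMIs and from the same library, giving 21, 11, 48 and 138 pairs in duodenum, ileum, colon and rectum. The jejunum had too few pairs. By the quasi-likelihood test of edgeR, which had a term for library, with Benjamini-Hochberg adjustment over 4646 genes, 1 gene was higher (Ogn) and 0 were lower in cells with Gnai1, or 0.0215% and 0%. At an unadjusted p under 0.05 there were 302 genes, and DESeq2 called 3 higher and 1 lower. The libraries serve as replicates here although they are different segments. With the term for library, the spread is that of the Gnai1 difference from segment to segment.

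None of the 3 members that passed the count filter passed this test. Wnt5a had 94.4, 112, 211 and 223 CPM in cells with Gnai1 and 137, 18.9, 51.9 and 84.3 CPM in cells without, in duodenum, ileum, colon and rectum. It was higher with Gnai1 in 3 of 4 libraries and lower in duodenum, with a log2 fold change of 1.25 (SE 0.35) and an edgeR adjusted p of 0.477. Without the duodenal library the Wnt5a log2 fold was 1.63 with an edgeR adjusted p of 0.00709, and without the filter on low counts it was 1.26 with an edgeR adjusted p of 2.7e-05. PDGFRA-high cells, which carry most Wnt5a, made up 40.4% of the cells with Gnai1 (88 of 218) and 7.34% of those without (16 of 218), and trophocyte-like cells were 22 with Gnai1 against 55 without. With pairs formed inside a stromal class, Wnt5a was 140, 88.8 and 83.7 CPM in cells with Gnai1, against 157, 81.0 and 101 CPM in cells without, in duodenum, colon and rectum. Its log2 fold was then -0.17 (edgeR unadjusted p 0.413), so the sign changed but no difference was shown either way. This matching left 16, 32 and 92 pairs in duodenum, colon and rectum. It also dropped the ileum, which had 9 pairs.

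Wnt4 had 47.2, 47.9, 119 and 200 CPM in cells with Gnai1 and 155, 18.9, 158 and 132 CPM in cells without, higher with Gnai1 in 2 of 4 libraries (log2 fold -0.09, SE 0.33, edgeR adjusted p 1.0). Rspo3 had 82.6, 71.9, 16.6 and 35.7 CPM with Gnai1 and 24.8, 56.7, 40.1 and 43.7 CPM without, also split 2 to 2 (log2 fold -0.15, SE 0.35, edgeR adjusted p 1.0). Both genes therefore overlapped between the cells. The 6 other members were too low to test, among them Wnt5b with 6, 2, 11 and 77 UMIs in cells with Gnai1 and 5, 1, 13 and 58 in cells without.

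**Figure D4:**
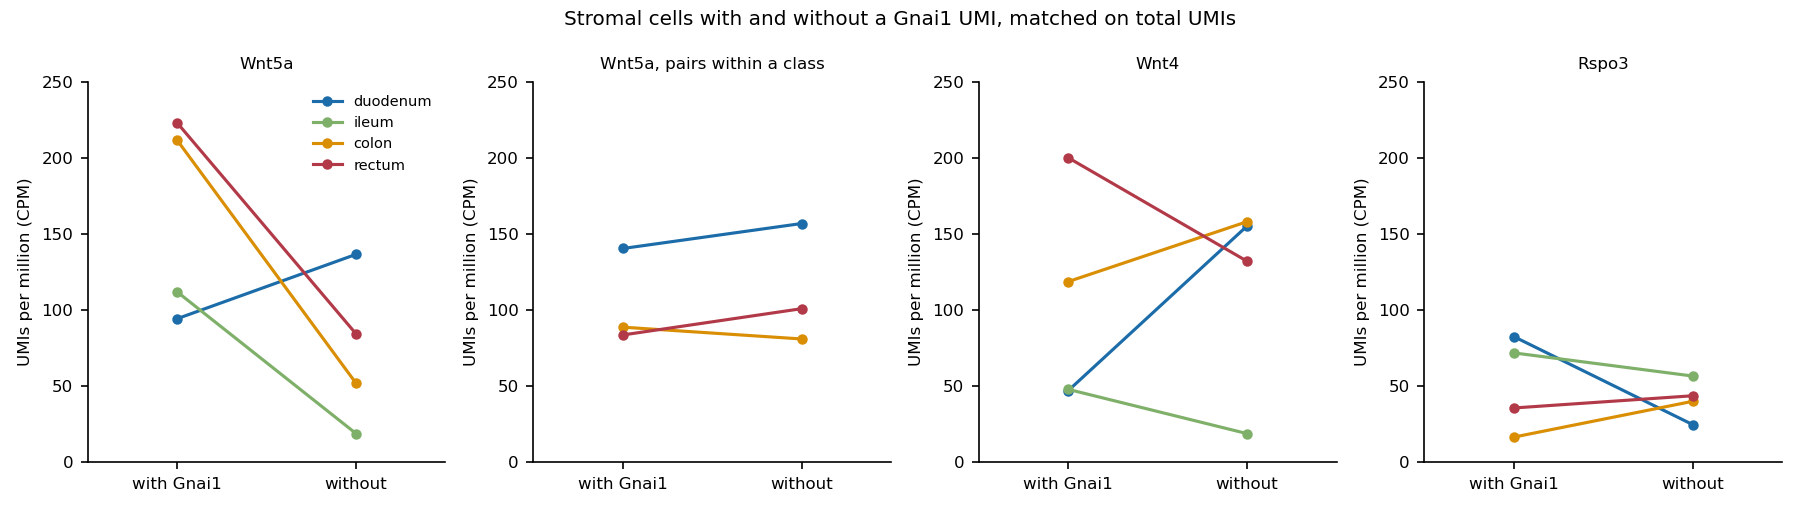
Levels in CPM of Wnt5a, Wnt4 and Rspo3 in stromal cells with a Gnai1 UMI (left) and without (right), matched on total UMIs, 1 line per library; the second panel pairs cells within a stromal class. Wnt5a is higher with Gnai1 in 3 of 4 libraries, at 112 to 223 CPM against 18.9 to 84.3 CPM, while the lines of the second panel go both ways.

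The genes that send and receive these signals were described from fixed lists of the pathway. By the same rule, 17.8% of all 14823 genes tested were higher and 14.0% lower in stroma than in epithelium. Of 14 other WNT and R-spondin genes 2 could be tested, and both, Wnt6 (6.48 CPM in stroma, 1.08 CPM in epithelium) and Wnt11 (7.03 CPM in stroma, 0.361 CPM in epithelium), were higher in stroma. All 3 genes of the list for ligand secretion, Porcn, Wls and Notum, were higher in stroma. Notum does not serve secretion, since it encodes an enzyme that inactivates WNT ligands outside the cell. Its call rested on 7 stromal UMIs. Wls, the carrier of WNT proteins to the cell surface, had 160 ± 36.2 CPM in stroma and 39.2 ± 27.9 CPM in epithelium. This passed narrowly, at a ratio of 4.09. Wls was highest in PDGFRA-high cells, at 212 CPM, the class that led for Wnt5a and Wnt4.

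Of 16 receptor and co-receptor genes 10 were higher and 2 lower in stroma, beside 17.8% and 14.0% of all genes tested. Fzd1 averaged 151 CPM in stroma and 4.17 CPM in epithelium, Fzd2 98.6 and 2.15 CPM, and Ryk, an atypical WNT receptor, 246 and 56.4 CPM. Fzd5 went the other way, with 8.29 CPM in stroma and 94.0 CPM in epithelium. PDGFRA-high cells, rich in Wnt5a, also had the highest Fzd2 (198 CPM), Ror2 (58.3 CPM), a receptor known to bind WNT5A, and Ryk (409.5 CPM). Lymphatic cells, rich in Wnt2 and Rspo3, had 98.9 CPM of Fzd4 and 33.8 CPM of Fzd6.

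Most of the tested genes that receive R-spondins were higher in epithelium. Of 4 genes tested, 0 were higher and 3 lower in stroma: Lgr4 (8.70 CPM in stroma, 56.9 CPM in epithelium), Lgr5 (1.77 and 11.5 CPM) and Rnf43 (0.198 and 16.1 CPM). Znrf3 was not called, with 4.02 CPM in stroma and 7.06 CPM in epithelium, and Lgr6, with 4 stromal and 2 epithelial UMIs, was too low to test. Crypt cells averaged 72.0 CPM of Lgr4, 38.3 CPM of Lgr5 and 32.7 CPM of Rnf43. Of 12 WNT target genes 2 were higher in stroma (Nkd1 and Lef1) and 3 lower (Ascl2, Sp5 and Sox9). Beside 17.8% higher and 14.0% lower among all genes tested, these target counts are not read as a result about the targets. Axin2, a general readout of the beta-catenin route, averaged 11.4 CPM in stroma and 24.8 CPM in epithelium, under the 4-fold rule, and reached 69.7 CPM in crypt cells. Of 7 secreted antagonists tested 6 were higher in stroma and 1, Sfrp5, was lower. In the Gnai1 contrast, none of the genes on these lists passed the edgeR test.

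**Figure D5:**
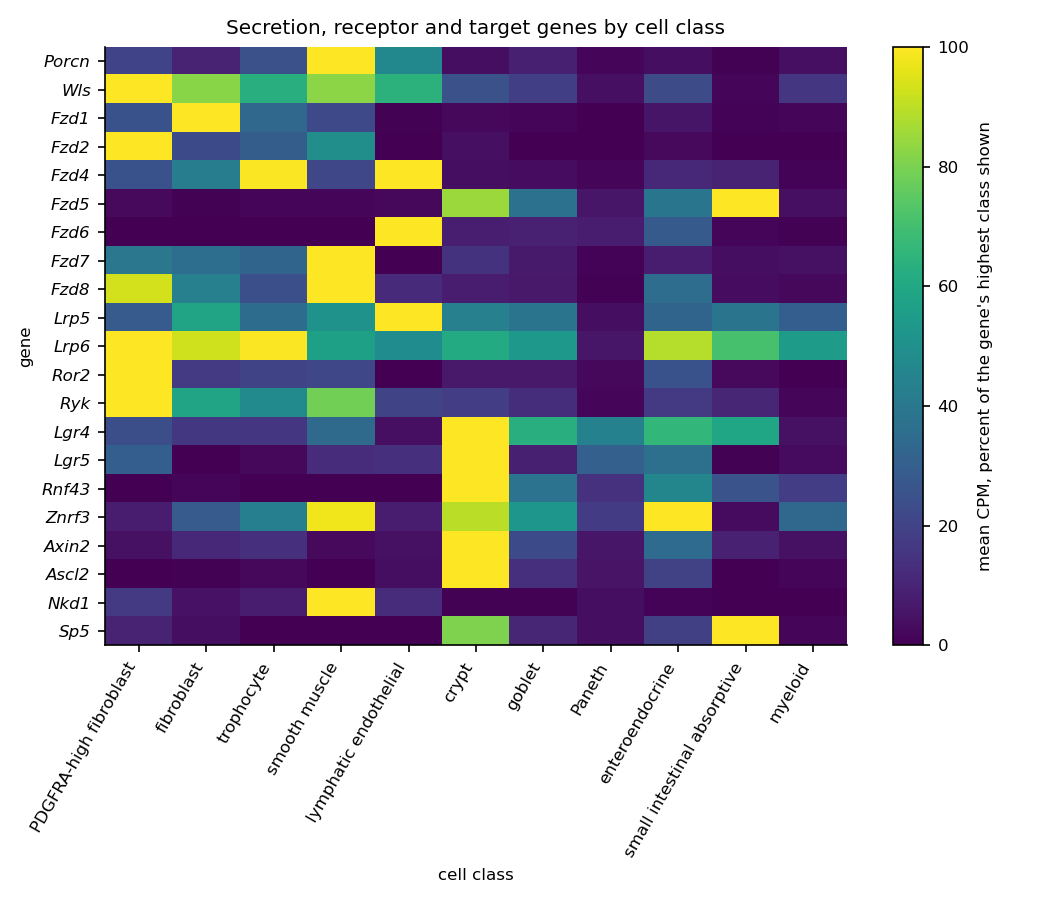
Mean CPM over libraries of secretion, receptor and target genes in 11 cell classes, each gene scaled to percent of its highest class shown. Wls, Fzd2, Ror2 and Ryk peak in PDGFRA-high fibroblasts and Lgr4, Lgr5, Rnf43, Axin2 and Ascl2 in crypt cells.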

How the data were processed

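The deposited matrices hold whole-number UMI counts per gene and barcode, not normalized by the authors. Per the submitters' processing notes they come from Cell Ranger 4.0.0, with Seurat and mm10 also named, whereas the deposited headers give cellranger 7.2.0. The spatial data were not analysed here.

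A barcode was kept if it had 300 genes or more and no more than 20% mitochondrial UMIs (12255 barcodes). The 333 highest Scrublet scores, by a rate that grows with a library's barcodes, were then removed as doublets. Cells were clustered in scanpy 1.11.5 on 2000 variable genes and 30 components (Leiden resolution 1.0, stromal and endothelial clusters divided at 0.3) without WNT pathway genes. A class name needed at least 3 markers raised 1.5-fold. UMIs were summed for each class in each library, and classes averaged over libraries with at least 10 cells. Rules of size asked for 4-fold and at least 50 UMIs, with 0 counts set to 3.

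The Gnai1 contrast used edgeR 4.0.16 with filterByExpr and TMM, and DESeq2 1.42.0 as an alternative. On simulated counts edgeR recovered 70.6% of genes changed by a log2 fold of 1, with 2 false calls among 4477 genes tested. That simulation had a common dispersion and no differences between segments. It therefore cannot say how the test behaves with the spread of the real libraries. The genes named are the 9 members, the pathway lists, the 3 genes most like each member, and any gene past the threshold in the Gnai1 contrast. Ogn and the leading genes of clusters identify clusters only. Members and lists were chosen with earlier results of these data known. The labels name no separate animals, so libraries are the unit. With library as a term, p-values set the Gnai1 difference against how much that difference varies between libraries. Free RNA was not removed.

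Alternatives were other barcode and doublet filters, clusterings, normalizations and thresholds, thinning to 2000 UMIs, and each library left out.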

Additional observations from a re-analysis of the deposited data

Results flagged for a closer look

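Immune cells lie outside the comparisons above, and 3 of the 9 genes gave a signal in 1 immune class above the upper limit in the other immune classes. This rule was run on the 9 genes alone and without adjustment. No share over all genes stands beside the count, so it is not read as a trait of these genes. Wnt4 was found in myeloid cells at 31.9 CPM (95% exact Poisson interval 28.9 to 35.1), from 421 UMIs in 152 of 920 cells. The other immune classes had 56 Wnt4 UMIs, or 1.52 CPM. By segment myeloid Wnt4 was 25.1, 33.7, 108, 20.9 and 11.1 CPM from duodenum to rectum, so every library showed it and the ileum was highest. Of its 421 myeloid UMIs, 402 lay in the 483 cells of a cluster led by C1qb, C1qc and C1qa, complement genes of macrophages, at 78.8 CPM. Stromal Wnt4 in jejunum was 0 where myeloid Wnt4 was 33.7 CPM.

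Wnt5b was found in T cells at 1.55 CPM (0.504 to 3.62), from 5 UMIs in 5 of 681 cells, against 1 UMI in the other immune classes. Rspo1 was found in myeloid cells at 0.379 CPM (0.123 to 0.884), from 5 UMIs in 5 of 920 cells, against 0 in the other immune classes. Both rest on 5 UMIs.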

How the results depend on the processing

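Of 215 recomputed values, 170 stayed within the limits set for a change, 35 moved, 2 passed a threshold they had missed and 8 reversed. The cause was not tested for any of them. Those limits are wide for some values: Wnt3 was 19.0 against 31.4 CPM with summed UMIs, within 1 SD over libraries, and 5 against 7 members were higher in stroma without trophocytes. In its leading class, Wnt2b moved from 8.67 CPM to 10.4 with every barcode kept, 6.18 with no doublets removed, 5.79 with Scrublet's automatic threshold, 10.8 with summed UMIs and 24.7 when thinned. Rspo1 moved from 51.4 CPM to 65.8 with every barcode kept, 35.3 with each library clustered on its own and 21.5 when thinned, and Wnt4 from 217 to 333 CPM when thinned. With each library clustered on its own, 5 of 8 genes kept their leading class. The count of members higher in stroma was 4 at a minimum of 200 UMIs and 4 to 7 with a library left out. The count with a stromal gap was 0 to 1 with a library left out (Wnt4 without duodenum). The lymphatic count was 0 at 200 UMIs and 0 to 1 with a library left out; its alternatives, and leaving out the Ighg1 cluster, were chosen after seeing the data.

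In the Gnai1 contrast the genes higher and lower, 1 and 0, became 78 and 67 without a filter, 3 and 1 with DESeq2, 3 and 1 with pairs within a class, 2 and 2 without matching, 5 and 5 with no doublets removed, 2 higher at 10% mitochondrial UMIs and 0 higher with PDGFRA-high cells left out (edgeR, 0 lower, 68 genes at an unadjusted p under 0.05). With a library left out they ranged over 0 to 28 higher and 0 to 24 lower. The highest counts were without duodenum (28 and 24), then ileum (17 and 15), and both were 0 without colon or rectum, with 69 and 77 genes at an unadjusted p under 0.05. The log2 fold of Wnt5a reversed in sign to -0.17 with pairs within a class (edgeR unadjusted p 0.413), where the ileum had too few pairs. Rspo3 reversed to 0.0082 with DESeq2, 0.48 within a class, 0.0076 without matching and 0.31 without PDGFRA-high cells. Wnt4 reversed to 0.066 without PDGFRA-high cells. With a library left out the log2 folds ranged from -0.62 to 0.21 for Wnt4 and from 0.93 to 1.63 for Wnt5a. For Rspo3, which gave no value without colon or rectum, they were -0.44 without duodenum and -0.23 without ileum. Depth limits the low genes, since Wnt2, Wnt2b, Rspo1 and Rspo2 had 115, 70, 78 and 11 UMIs. No paired analysis was possible because each segment is 1 library whose replicate number comes from accession order; the Gnai1 contrast has library as a term.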
